A study of Mus musculus with 12 samples.

Results

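The genes described here are 10 mouse genes of the acute-phase and inflammatory response, Saa3, Lcn2, Steap4, Acod1, Hp, Cp, Serpina3n, Serpina3g, Cebpd and Nos2, measured on single-colour Agilent arrays of mouse embryonic fibroblasts (MEFs) and primordial germ cells (PGCs). They were selected on measured values of these same arrays, with their differences between treated and control MEFs known. For these genes, the differences of treated MEFs and of PGCs from control MEFs are therefore given as a description with no p-value. Their tests are given only for OCKS-treated against OS-treated MEFs. Some p-values against control MEFs are printed for Dnmt1 and for companion genes, which are other genes of the same families and pathways. The companion lists were also chosen with earlier results of these data known, so their p-values are descriptive. Of the 10 genes, 9 had a probe whose RefSeq accession could be matched to them, each with 1 probe, among 19718 genes named on the array. No value is given for Serpina3g, because the accession on the array was not paired with it in the gene table used. Each value is the log2 signal minus the 75th percentile of its array, so that 0 stands for a signal equal to that percentile and each unit for a doubling.

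The study asked whether germ cell-specific genes could be switched on in MEFs by transcription factors together with changes to chromatin. The control MEFs, the OS-treated MEFs and the OCKS-treated MEFs all came from male embryos of a C57BL6/J cross carrying the Vasa::RFP and Oct4_delta_PE-GFP reporter transgenes. OS stands for vectors expressing Oct4 and Sox2, and OCKS for a tandem vector expressing Oct4, c-Myc, Klf4 and Sox2. Both treated groups were collected on day 4. Both also received chem (the chromatin-enzyme inhibitors tranylcypromine, BIX-01294 and DZNep), VA5 (valproic acid and an ALK5 inhibitor) and an siRNA against Dnmt1. The PGCs were taken from female E15.5 genital ridges from a cross of MCH with C57BL6/J carrying Oct4_delta_PE-GFP, so that sex, strain and tissue differed from the MEFs along with the cell type. Each group held 3 biological replicates. Vectors and siRNA were transfected transiently, so a treated sample could hold cells without them, and the methods name media with and without the cytokine LIF without saying which the arrayed cells had, nor whether the control MEFs received a control siRNA.

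The acute-phase response is the rapid change in secreted proteins that follows injury or infection, and it is best known in the liver. Interleukin-6 type cytokines act on it through STAT3, and interleukin-1 and tumour necrosis factor through NF-κB. C/EBPβ and C/EBPδ bind the promoters of many of its genes, and fibroblasts and fat cells can express several of them. Of the 9 measured genes, Saa3, Hp, Serpina3n, Lcn2 and Cp encode secreted proteins. Steap4 encodes a membrane protein, Acod1 and Nos2 encode enzymes that stay in the cell, and Cebpd encodes a transcription factor, so the name of secreted genes covers only some of them.

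The arrays were alike in quality, with 71.9 to 85.6% of spots well above background and no saturated spot. They lay on 6 slides, and no slide carried both treated and control MEFs, so a slide difference and a treatment difference cannot be told apart. A random block for the slide was tried and cannot separate the slide from the treatment. Under it the same 8 of the 9 genes were called in both treatments, and nothing is read from that count. Dnmt1, the target of the siRNA, was at -1.07, -0.86 and -1.22 in control MEFs, and it fell by 2.05 in OS-treated and by 2.34 in OCKS-treated MEFs (limma, adjusted p = 3.24e-06 and 1.26e-06). The Pou5f1 probe (Oct4) read -1.75 to -0.82 in OS-treated but only -6.86 to -5.68 in OCKS-treated MEFs, and where this probe lies relative to the vector's Oct4 was not known. The fibroblast markers were well above background on every array of the 3 MEF groups, with 8 of 8 genes detected. Of these, 3 fell and 2 rose in each treatment, and their summed signal in units of the 75th percentile went from 458 to 704 in control MEFs to 329 to 489 with OS and 267 to 483 with OCKS. The third OS replicate stood between the treated groups. Across 14327 genes its correlation was 0.9931 to 0.9935 with the other OS arrays and 0.9932 to 0.9951 with the OCKS arrays, and results that rest on it are given with and without it. The second OCKS replicate was no closer to its own group either. Its correlation was 0.9876 and 0.9931 with the other OCKS arrays and 0.9862 to 0.9933 with the OS arrays. Over all genes tested, 10.7% rose and 12.6% fell in OS-treated against control MEFs at an adjusted p under 0.001 and a change of at least 2-fold, and 11.2% rose and 14.0% fell in OCKS-treated MEFs. With the labelled spike-in probes as the scale, the share of rises among all calls moved from 45.9 to 87.3% for OS and from 44.6 to 67.4% for OCKS, and the median of all genes moved by 0.798 and 0.325. With quantile normalization after normexp background correction these shares were 54.2 and 53.0%.

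In treated MEFs, 8 of the 9 measured genes were far above control MEFs with either vector set, and Nos2 was the exception. The 8 differences from control ran from 2.26 for Cebpd to 12.57 for Saa3 in OS-treated MEFs and from 2.07 to 12.04 in OCKS-treated MEFs. In each of these 8 genes the lowest treated array lay above the highest control array. The median difference of the 9 genes was 7.22 with OS and 6.73 with OCKS, against -0.189 and -0.172 over all genes tested. The 8 genes also passed the limits used for all genes in both comparisons. These comparisons chose the genes, so nothing is read from either count. The share of all genes without overlap was not computed here. In bulk RNA such as this, a larger share of expressing cells and more RNA per cell cannot be told apart.

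**Figure D1:**
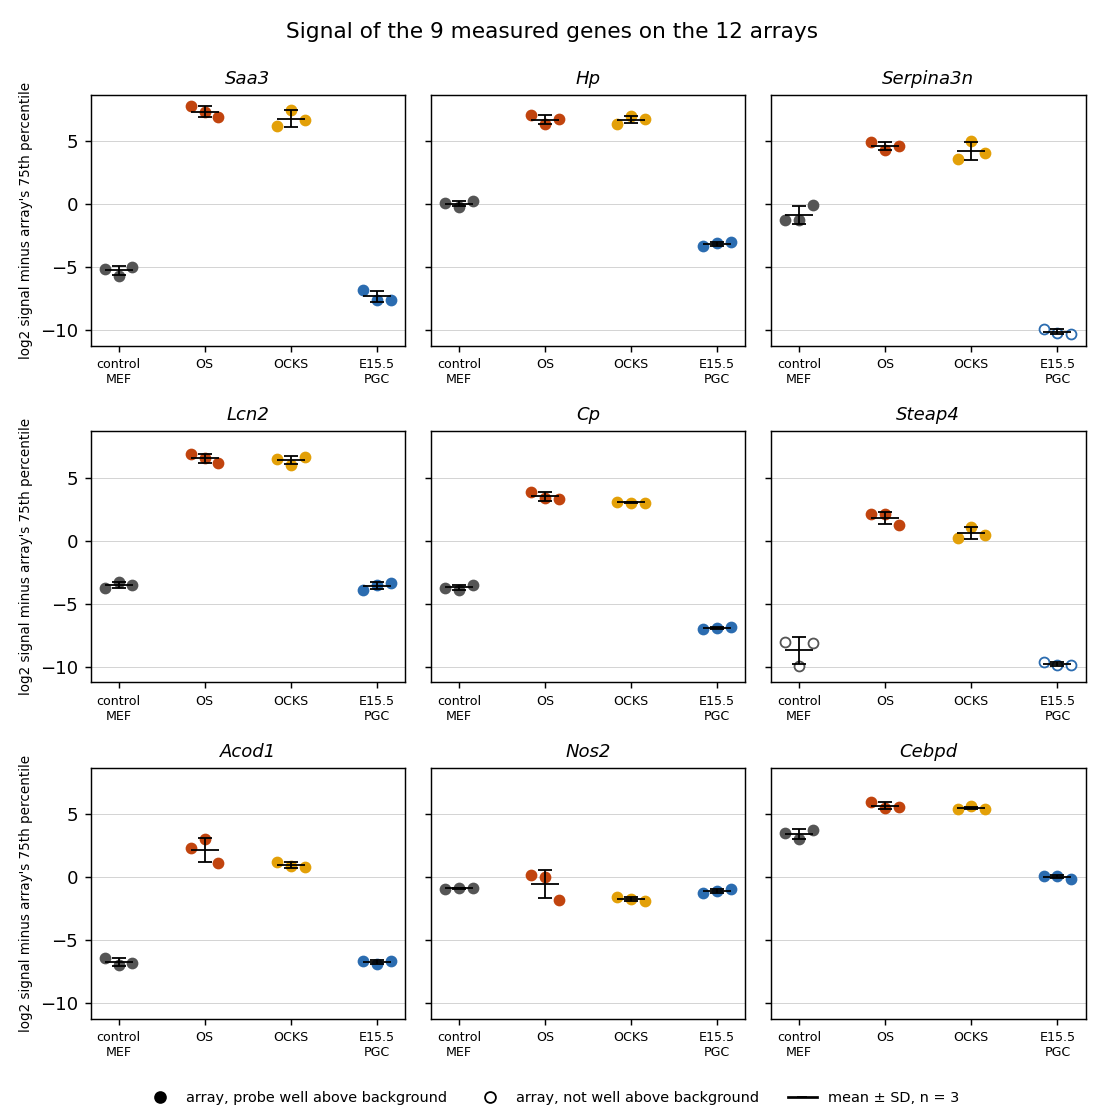
Log2 signal minus the array's 75th percentile for the 9 measured genes on each of the 12 arrays, by group. Filled points are arrays on which the probe was well above background, open points are arrays on which it was not, and bars are mean ± SD over 3 arrays; Saa3 runs from -5.24 in control MEFs to 7.33 in OS-treated MEFs, and Nos2 shows a single low OS array.

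Among the secreted proteins, Saa3 encodes a serum amyloid A, an apolipoprotein made outside the liver in inflammation. It read -5.13, -5.65 and -4.95 in the control MEFs, 7.78, 7.3 and 6.92 in the OS-treated MEFs and 6.19, 7.51 and 6.7 in the OCKS-treated MEFs. The treated arrays overlapped with each other and lay far above every control array. The difference from control was 12.57 with OS (SE 0.364, n = 3 per group, about 6090-fold) and 12.04 with OCKS (SE 0.364, about 4210-fold). In PGCs Saa3 read -6.76, -7.56 and -7.58, below every control MEF array. The probe was well above background on all 12 arrays.

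Hp encodes haptoglobin, the plasma protein that binds free haemoglobin. Its signal was 0.14, -0.2 and 0.24 in control MEFs, 7.05, 6.36 and 6.74 in OS-treated MEFs and 6.41, 7.0 and 6.75 in OCKS-treated MEFs. The treated groups covered nearly the same range, and both means were 6.72. Either treatment stood 6.66 above control (SE 0.203, about 101-fold). PGCs read -3.29 to -3.02, a difference from control MEFs of -3.18, and did not overlap with them.

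Serpina3n encodes a secreted inhibitor of serine proteases related to human antichymotrypsin. The control MEFs read -1.24, -1.27 and -0.02, the OS-treated MEFs 4.96, 4.28 and 4.62 and the OCKS-treated MEFs 3.62, 5.02 and 4.07. The second OCKS array was the highest of all and the first OCKS array the lowest of the treated ones. The differences from control were 5.46 (SE 0.399) and 5.08 (SE 0.399). In PGCs the probe was not well above background on any array, while it was on all 3 control arrays. Serpina3n was therefore at least 136-fold higher in control MEFs than in PGCs, taking for each PGC array the lowest signal that the array called well above background.

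Lcn2 and Cp handle iron, and Lcn2 encodes lipocalin 2, which withholds iron from bacteria by binding their siderophores. Its signal was -3.73, -3.26 and -3.52 in control MEFs, 6.87, 6.57 and 6.16 in OS-treated MEFs and 6.52, 6.02 and 6.67 in OCKS-treated MEFs. The treated groups overlapped, and the differences from control were 10.04 and 9.91 (SE 0.232 each, about 1050-fold and 960.0-fold). PGCs at -3.89, -3.49 and -3.35 overlapped with control MEFs, with a difference of -0.07. Cp encodes ceruloplasmin, the copper-carrying ferroxidase. It read -3.72, -3.89 and -3.5 in control MEFs, 3.9, 3.36 and 3.3 in OS-treated MEFs and 3.11, 2.99 and 3.0 in OCKS-treated MEFs. Every OCKS array lay just below every OS array. The differences from control were 7.22 and 6.73 (SE 0.158 each), and PGCs at -7.0, -6.92 and -6.84 lay 9.32-fold below control MEFs.

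Steap4 encodes a membrane metalloreductase that reduces iron and copper and is known in fat tissue. Its probe was not well above background on any control MEF or PGC array and was so on all 6 treated arrays. The control MEFs read -8.05, -9.91 and -8.14. The OS-treated MEFs read 2.1, 2.11 and 1.26 and the OCKS-treated MEFs 0.19, 1.11 and 0.44, so that the treated groups did not overlap. Steap4 was at least 798-fold higher in OS-treated and at least 338-fold higher in OCKS-treated than in control MEFs, by the same floor as above.

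Acod1 encodes the mitochondrial enzyme that makes itaconate in activated macrophages. It read -6.38, -7.0 and -6.8 in control MEFs, 2.34, 3.02 and 1.12 in OS-treated MEFs and 1.21, 0.87 and 0.82 in OCKS-treated MEFs. The third OS array fell among the OCKS arrays. The differences from control were 8.89 (SE 0.386, about 473-fold) and 7.69 (SE 0.386, about 207-fold), and PGCs at -6.61, -6.9 and -6.61 overlapped with control MEFs.

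Nos2 encodes inducible nitric oxide synthase and behaved differently from the others. Control MEFs read -0.92, -0.89 and -0.89, OS-treated MEFs 0.17, 0.05 and -1.79 and OCKS-treated MEFs -1.56, -1.76 and -1.87. The first and second OS arrays lay above every control array, while the third lay below them among the OCKS arrays. The difference from control was 0.38 with OS (SE 0.41) and -0.83 with OCKS (SE 0.41). Without the third OS replicate the OS difference became 1.01 (SE 0.119), which passed the limits used for all genes, and the OCKS difference stayed at -0.83. On the spike-in scale the OS difference was 1.18. PGCs read -1.24 to -0.96, just below the control arrays.

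Cebpd encodes C/EBPδ, the transcription factor of the set, and it had the smallest difference among the 8. Control MEFs read 3.52, 3.01 and 3.74, OS-treated MEFs 5.98, 5.5 and 5.56 and OCKS-treated MEFs 5.43, 5.61 and 5.44. The treated groups overlapped and stood 2.26 and 2.07 above control (SE 0.187 each, about 4.78-fold and 4.2-fold). PGCs at 0.11, 0.07 and -0.12 lay 10.6-fold below control MEFs.

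The promoters of the genes with the largest differences are shown because C/EBP, NF-κB and STAT factors are the textbook regulators of this response. RefSeq promoter sequences on GRCm38.p6, running from 250 bases before to 50 bases after a transcript start, were at hand for 6 of the 9 measured genes. The 250 bases before the start of Saa3 (chr7:46715677-46715926, minus strand), Lcn2 (chr2:32387740-32387989, minus strand) and Steap4 (chr5:7960222-7960471, plus strand) are given 5′ to 3′. Capitals mark matches on either strand to the C/EBP pattern TTNNGNAA, the STAT pattern TTCNNNGAA or the κB consensus, and overlapping matches run together.
Saa3: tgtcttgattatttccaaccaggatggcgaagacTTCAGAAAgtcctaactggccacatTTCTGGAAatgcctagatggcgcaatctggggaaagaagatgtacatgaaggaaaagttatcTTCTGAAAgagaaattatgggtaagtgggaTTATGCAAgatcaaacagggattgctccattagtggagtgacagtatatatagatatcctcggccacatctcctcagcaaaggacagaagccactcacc
Lcn2: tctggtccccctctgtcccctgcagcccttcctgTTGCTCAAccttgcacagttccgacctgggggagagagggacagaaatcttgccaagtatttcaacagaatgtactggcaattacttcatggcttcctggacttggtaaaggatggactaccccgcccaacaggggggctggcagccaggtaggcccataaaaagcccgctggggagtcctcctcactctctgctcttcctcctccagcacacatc
Steap4: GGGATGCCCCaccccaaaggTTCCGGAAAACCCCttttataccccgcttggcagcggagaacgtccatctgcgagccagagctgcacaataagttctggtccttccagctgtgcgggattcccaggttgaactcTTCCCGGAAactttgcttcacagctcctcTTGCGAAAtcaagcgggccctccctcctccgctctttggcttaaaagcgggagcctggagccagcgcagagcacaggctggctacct
The Saa3 promoter held 4 C/EBP matches, and 40.7% of the 32851 promoters in the table held at least 1 in the full 300 bases. The one nearest to the start begins 99 bases before it. Lcn2 held 1 C/EBP match, each of the Cp starts 1, Serpina3n 2 and Acod1 none. Steap4 held 2 C/EBP matches, 2 κB matches and 1 STAT match, and its first κB match overlaps no other while the second overlaps a C/EBP match. The κB consensus occurred in 4.51% and the STAT pattern in 8.3% of all promoters, and neither was found in the windows of the other 5 measured genes. The window of Serpina3g, which has no array value here, held 1 κB, 1 STAT and 3 C/EBP matches. The interferon-stimulated response element occurred in 3.44% of promoters and once in Saa3, overlapping a C/EBP match, and the octamer bound by Oct4 occurred in 1.74% and in none of these windows. CG dinucleotides, the sites of DNA methylation, numbered 5 in Saa3, 3 in Lcn2, 2 in Acod1 and 16 in Steap4, against a median of 7.0. These matches describe letters only, and no binding or methylation was measured here.

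The genes were chosen on their differences from control MEFs, and OCKS-treated were then tested against OS-treated MEFs, which by their labels differed in c-Myc and Klf4 and in the form of the vector. The probes of these genes did not show that difference, since OCKS minus OS was -0.27 for Myc (95% interval -0.79 to 0.25, limma adjusted p = 0.575) and -0.19 for Klf4 (-0.61 to 0.23, adjusted p = 0.636), and where the probes lie relative to the vector's inserts was not known. Against control MEFs, Myc differed by 1.57 with OS and 1.3 with OCKS, and Klf4 by -0.03 and -0.22. The OCKS mean was below the OS mean in 8 of the 9 genes, against 48.8% of all genes, and Hp differed by 0.00 (95% interval -0.45 to 0.45). None of the 9 differences passed an adjusted p of 0.001 (limma, Benjamini-Hochberg adjustment over 15707 genes), and 0% of all genes did. At an adjusted p under 0.05, 1 of all genes rose and 6 fell. At an unadjusted p under 0.05, 4 of the 9 genes stood apart, against 17.6% of all genes. The median difference of the 9 genes was -0.49, against 0.006 over all genes.

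The lower levels with OCKS were those of Steap4, Nos2, Acod1 and Cp. The OCKS minus OS difference of Steap4 was -1.24 (95% interval -2.26 to -0.22, limma adjusted p = 0.209) and that of Acod1 was -1.19 (-2.05 to -0.33, adjusted p = 0.171). For Cp it was -0.49 (-0.84 to -0.13, adjusted p = 0.171). Steap4 and Cp were the genes whose treated groups did not overlap, with OCKS lower in 2 of 9, against 9.73% of all genes. Nos2 differed by -1.21 (-2.12 to -0.3, adjusted p = 0.184), and by -1.84 without the third OS replicate (adjusted p = 0.000206). Its adjusted p ranged from 0.000206 to 0.559 over the alternatives, and without that replicate 6 of all genes rose and 26 fell in place of none. The remaining genes had intervals that crossed 0. Saa3 differed by -0.53 (-1.34 to 0.28, adjusted p = 0.478), Serpina3n by -0.38 (-1.27 to 0.5, adjusted p = 0.646), Cebpd by -0.19 (-0.6 to 0.23, adjusted p = 0.636) and Lcn2 by -0.13 (-0.65 to 0.39, adjusted p = 0.806).

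The first OS and first OCKS replicates shared a slide and give a comparison of 1 array each without a slide difference. There OCKS was lower in all 9 genes, from -0.36 for Lcn2 to -1.9 for Steap4, with -1.59 for Saa3 and -0.65 for Hp. The first OCKS array was the lowest of its group in Saa3, Steap4, Serpina3n and Hp. The share of all genes lower in this pair was not computed, so nothing is read from that count. On the spike-in scale the OCKS minus OS median of all genes moved by -0.473, and Hp then differed by -0.47.

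**Figure D2:**
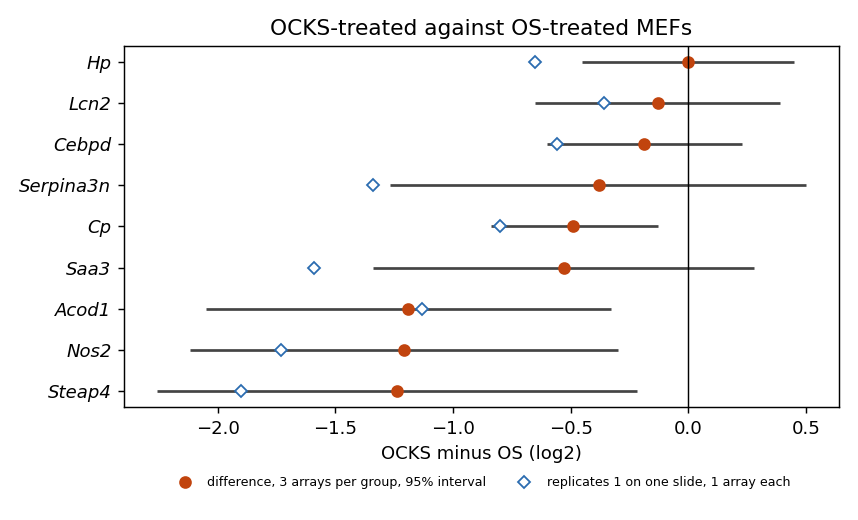
OCKS-treated minus OS-treated MEFs on the log2 scale for the 9 measured genes, with the 95% interval over 3 arrays per group, and, as open diamonds, the difference of the replicates that shared a slide. The differences run from -1.24 for Steap4 to 0.00 for Hp, and the intervals of Steap4, Nos2, Acod1 and Cp lie below 0.

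Within the OS-treated group the third replicate was low in Nos2 and Acod1, and lower in the cytokine genes Csf3 and Il6, which were singled out after their values were seen. Its difference from the mean of the other OS arrays was -1.9 in Nos2, -1.56 in Acod1, -2.28 in Csf3 and -2.01 in Il6. Of 15610 genes well above background on the 3 OS arrays, 295 (1.89%) were lower in it by more than 1 and 161 (1.03%) higher, and 2 of the 9 genes were among the lower ones. Saa3, Lcn2 and Steap4 were lower by less, at -0.61, -0.56 and -0.84, and Hp and Serpina3n did not differ from the other arrays beyond 0.03. This replicate shared its slide with the second OS replicate, which did not read low.

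**Figure D3:**
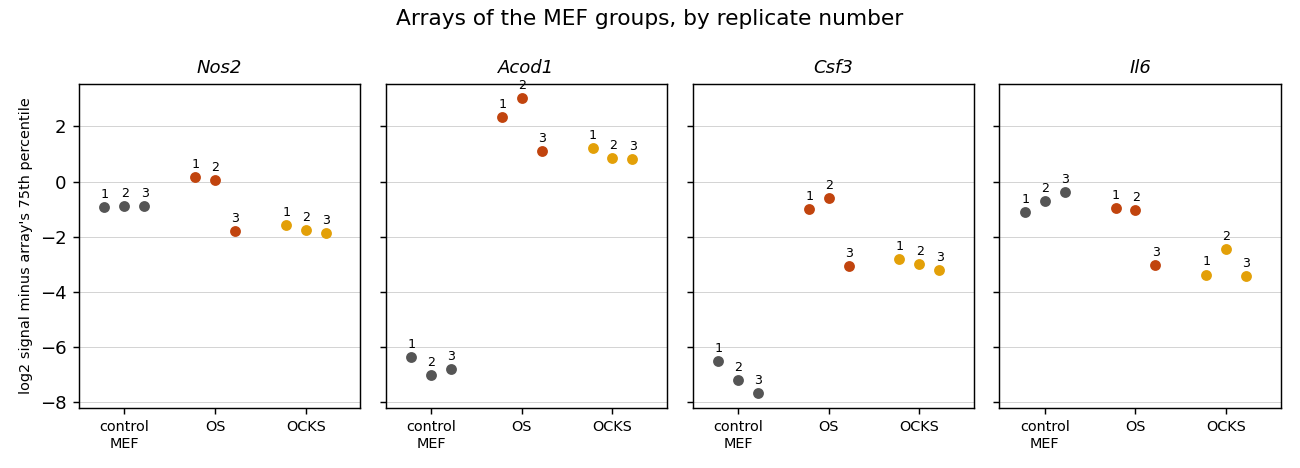
Log2 signal minus the array's 75th percentile for Nos2, Acod1, Csf3 and Il6 on the 9 MEF arrays, each point marked with its replicate number. OS replicate 3 lies with the OCKS arrays in Nos2 (-1.79), Csf3 (-3.07) and Il6 (-3.01) and close to them in Acod1 (1.12).

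In PGCs none of the 9 genes was above control MEFs beyond the spread of the arrays. The levels of Saa3, Hp, Cp, Serpina3n, Cebpd and Nos2 lay below every control array, and all of these but Nos2, 5 of the 8 genes tested, passed the limits used for all genes. Of all genes, 26.1% passed by falling and 30.2% by rising, and nothing is read from the comparison because PGCs were part of the selection. The difference was -2.06 for Saa3 (SE 0.364), which did not pass without the first or the third control MEF replicate or the second or the third PGC replicate, -3.22 for Cp (SE 0.158) and -3.4 for Cebpd (SE 0.187). Lcn2, Acod1 and Nos2 differed from control MEFs by -0.07, 0.02 and -0.19, and Steap4 was not well above background in either. Between the PGC and MEF arrays that shared a slide, 2 of each, the differences of these genes were -2.27 for Saa3, -3.06 for Hp, -3.19 for Cp and -3.4 for Cebpd, and Serpina3n was again not well above background in the PGCs.

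Neighbouring genes of the same families were measured by their own probes. These genes and the lists below were chosen with earlier results of these data known. Their p-values and calls against control MEFs are therefore a description. Saa3 lies beside Saa4, Saa1 and Saa2, which also encode serum amyloid A proteins, and all 4 were above control in both treatments. Saa1 rose by 6.93 with OS and 6.32 with OCKS (SE 0.334 each, adjusted p = 8.86e-08 and 1.55e-07, limma). Saa2, not well above background in control MEFs, was at least 120-fold and 111-fold higher. Saa4, named because of its place, rose by 4.53 and 4.24 and was well above background on 2 of the 3 control arrays. Saa1 and Saa2 are closely related in sequence, so their probes may share signal.

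The Serpina3 genes of mouse form a cluster, with Serpina3n at one end next to Serpina3m. Of the 7 other members with a probe, 5 were tested, and 3 rose with OS and 2 with OCKS, with medians of 2.9 and 1.79. The share of all genes that rose was 10.7% with OS and 11.2% with OCKS. Serpina3m, the neighbour, rose by 7.24 and 6.82 (SE 0.403 each), and Serpina3c rose by 6.64 and 6.46 (SE 0.611 each, with 2 of 3 control arrays above background). Serpina3f rose by 2.9 with OS (SE 0.372, adjusted p = 6.61e-05), and with OCKS its difference was 1.79 (adjusted p = 0.00161). Serpina3k, which lies between Serpina3f and Serpina3m, differed by 0.18 and -0.13, and Serpina3b by -0.72 and -1.22, and neither passed. Serpina3a was detected on PGC arrays and on none of the MEF arrays. These genes are close copies of each other, and which of them a probe reads is uncertain.

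Of 26 other acute-phase genes tested, 13 were called higher and 3 lower in OS-treated MEFs, and 14 higher and 3 lower in OCKS-treated MEFs. Their median difference was 1.66 and 2.3, against -0.189 and -0.172 over all genes. Over all genes 10.7% rose and 12.6% fell with OS, and 11.2% and 14.0% did so with OCKS. The falls of this list lay near those shares. Beside Saa1 and Saa2, the complement gene Cfb was among the largest, at 7.39 and 7.09 (SE 0.3 each, adjusted p = 3.17e-08 and 3.99e-08). Among the genes called lower were F3 (tissue factor) and Apcs (serum amyloid P). F3 fell by 2.73 and 2.35. Apcs was at least 5.46-fold and 4.56-fold lower, and both calls were lost with normexp and quantile normalization and with both groups required above background. Crp, the C-reactive protein gene, was not well above background on any MEF array. With both groups required above background, 7 of these genes rose in each treatment.

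Among the cytokine genes of the response, 9 of 12 were tested, with 1 call up and 2 down in OS-treated MEFs and 1 up and 3 down in OCKS-treated MEFs. Over all genes 10.7% rose and 12.6% fell with OS, and 11.2% and 14.0% did so with OCKS. The rises of this list lay near those shares. Csf3, which encodes G-CSF, rose by 5.58 with OS (SE 0.601, adjusted p = 1.93e-05) and 4.12 with OCKS (limma, adjusted p = 0.000156), from -6.52, -7.19 and -7.67 in control MEFs. The OCKS rise did not pass after normexp and quantile normalization. Il11 fell by 3.58 and 3.68, and Cntf fell by 1.83 and 1.77. Tnf fell by 1.53 with OCKS, where 1 of 3 arrays was well above background, and did not pass with OS (-0.88). The OCKS call of Tnf was lost with normexp and quantile normalization, with spike-in scaling and with both groups required above background. Il6, named because it is the classic inducer, differed by -0.94 and -2.37 and did not pass in either. Il1a was not well above background on any MEF array, and Il1b on 1 OS array only.

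Of 16 receptor genes, OS-treated MEFs had 6 up and 1 down and OCKS-treated MEFs 4 up and 1 down. Il1r1, the signalling receptor of interleukin-1, rose by 3.05 and 2.45 (SE 0.308), and Il1r2, its decoy, rose by 4.33 and 3.6 (SE 0.548). Tlr2, a receptor for bacterial lipoproteins, rose by 2.22 and 2.2. Cntfr fell by 1.92 and 1.33, and its OCKS fall did not pass in 15 of 25 alternatives, among them leaving out any 1 control MEF array. The OCKS rise of Il1r2 did not pass without the first or without the second control MEF replicate. On the spike-in scale 12 receptors rose with OS and 8 with OCKS, and none fell. Of 22 signal transducers, 11 rose with OS and 9 with OCKS, against 10.7% and 11.2% of all genes, and none fell, against 12.6% and 14.0%. Bcl3, an atypical IκB protein, rose by 3.8 and 3.71 (SE 0.311), and Irak3, a brake on Toll-like receptor signalling, by 3.49 and 2.85 (SE 0.305). Stat3 itself differed by -0.64 and -0.42 and Rela by -0.16 and -0.21. The list medians were -0.51 and -0.41 for cytokines, 1.1 and 1.01 for receptors and 0.97 and 0.88 for transducers.

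Of the 6 other C/EBP genes, 3 were called higher and 1 lower in both treatments, with medians of 1.06 and 0.87. Over all genes 10.7% rose and 12.6% fell with OS, and 11.2% and 14.0% did so with OCKS. Cebpg, at -0.67 and -0.59, and Cebpz, at 0.1 and 0.11, were not called. Cebpa rose by 4.17 and 4.72 (SE 0.213) and Cebpb by 2.08 and 1.64 (SE 0.159), both regulators of fat cell and liver genes. Cebpe was at least 2.61-fold and 3.93-fold higher, and its OS call was lost without the first or without the second OS replicate. Ddit3 fell by 1.07 and 1.33, and its OS fall did not pass with median, spike-in or normexp and quantile scaling, nor without the third control MEF replicate.

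Beside Lcn2, Cp and Steap4, 23 genes of iron and copper handling were tested, of which OS-treated MEFs had 5 up and 4 down and OCKS-treated MEFs 6 up and 4 down. Over all genes 10.7% rose and 12.6% fell with OS, and 11.2% and 14.0% did so with OCKS, so the falls of this list lay near the background. The list medians were 0.11 and 0.05. Trf, which encodes transferrin, rose by 3.97 and 3.52 (SE 0.351), and Steap3, a paralogue of Steap4, by 2.14 and 2.4 (SE 0.122). Slc40a1 (the iron exporter ferroportin), Slc31a2 and Atp7a (copper transporters) rose too, and Slc22a17 (a lipocalin 2 receptor) passed with OCKS at 1.11 but not with OS at 0.79. Cybrd1, an iron reductase, fell by 2.21 and 1.78, and Tfrc, the transferrin receptor, by 1.52 and 1.43, while Tfr2 and Atp7b were the other falls. The OS fall of Atp7b did not pass without any 1 of the 3 control MEF replicates. Steap1 and Steap2, the further Steap family genes, differed by 1.04 and 0.89 with OS and by 0.35 and -0.04 with OCKS, and did not pass. On the spike-in scale 10 of these genes rose and 1 fell with OS.

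Of 15 genes of nitric oxide and itaconate metabolism tested beside Nos2 and Acod1, OS-treated MEFs had 2 up and 2 down and OCKS-treated MEFs 3 up and 3 down. Over all genes 10.7% rose and 12.6% fell with OS, so the OS counts of this list lay near the background. The list medians were -0.05 and 0.11. Arg2, a mitochondrial arginase that competes for the substrate of Nos2, was at least 34.3-fold and 19.8-fold higher, and Gch1, which makes a cofactor of Nos2, rose by 3.45 and 2.58 (SE 0.276). Arg1 fell by 1.65 and 2.26, and Ddah2 by 1.7 and 1.88. Clybl rose by 1.23 with OCKS (0.89 with OS, not called) and Ddah1 fell by 1.26 with OCKS (-0.55 with OS, not called). The OS fall of Arg1 did not pass without the first or second replicate of control or OS-treated MEFs, the third of OCKS-treated MEFs or the second of PGCs. The OCKS fall of Ddah1 did not pass without any 1 control MEF replicate, nor without the first or the third OCKS replicate.

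Between OCKS-treated and OS-treated MEFs no gene of these lists was called. In PGCs the receptors and transducers were mostly below control MEFs, with 11 of 16 receptors called lower and none higher, at a median of -4.29, and 14 of 22 transducers lower and 1 higher, at a median of -1.31. Of 23 iron and copper genes, 12 were lower and 3 higher, and of 25 other acute-phase genes 6 were lower and 2 higher, with medians of -1.07 and -0.14 against 0.216 over all genes. Of 10 cytokine genes tested there, 5 were lower and 1 higher. Over all genes 26.1% were lower and 30.2% higher in PGCs, so the lower calls among the other acute-phase genes lay at the background and the higher ones under it.

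**Figure D4:**
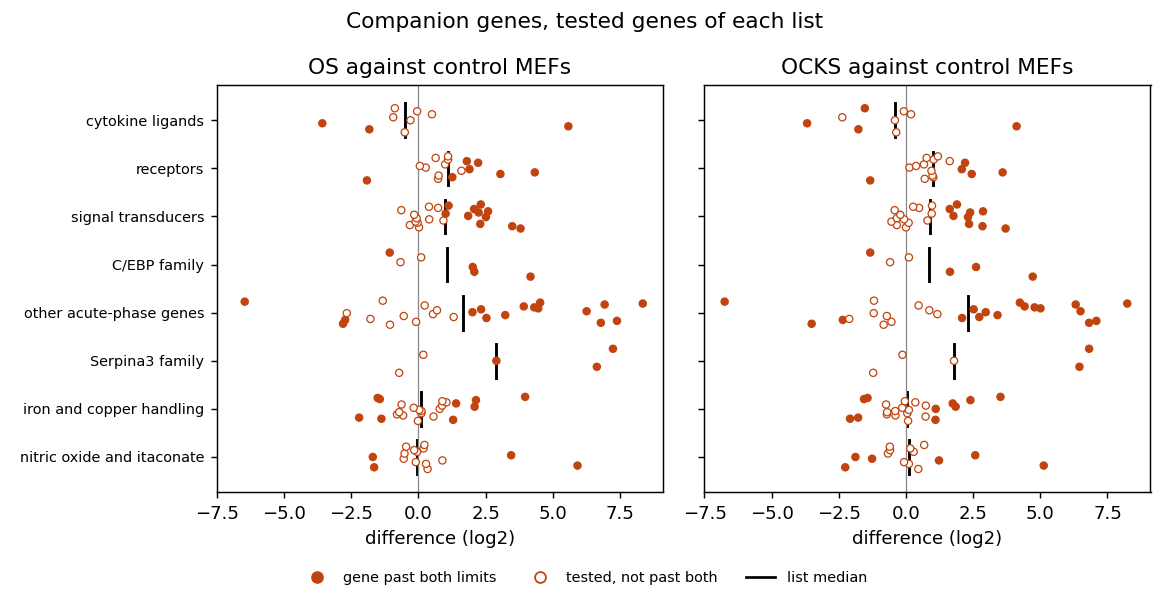
Difference of OS-treated (left) and OCKS-treated (right) from control MEFs, on the log2 scale, for the tested genes of each companion list, the measured 9 left out. Filled points passed an adjusted p under 0.001 and a change of at least 2-fold, open points did not, and the black line is the list median, which lies at 1.1 and 1.01 for receptors and at -0.51 and -0.41 for cytokines.

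The genes whose pattern over the 12 arrays lay closest to Saa3 and Lcn2, after subtracting each gene's control mean, were sought among 17560 detected genes. For Lcn2 they were Ces1f, Cxcl13, Ear1, Ccl5 and Mup20, at root mean square distances of 0.42, 0.57, 0.84, 0.96 and 1.01. For Saa3 they were Cxcl13 (1.81), Ear1 (1.97), Cyp2f2 (2.01), Ces1f (2.13) and Mup20 (2.15). Cxcl13 and Ccl5 encode chemokines, Ces1f a carboxylesterase, Ear1 an eosinophil-type ribonuclease and Mup20 a major urinary protein. Only Ccl5 and Cyp2f2 of these were well above background on the control and PGC arrays, so the distances of the other 4 rest partly on background signal. All 12 values of each gene share the arrays and the groups, and the likeness is a description.

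Markers of other cells that express acute-phase genes were read on the same arrays. For the counts of markers, the shares over all genes were 10.7% rising and 12.6% falling with OS. With OCKS they were 11.2% and 14.0%. The summed signal of 10 macrophage markers, in units of the 75th percentile, was 27.6 to 29.0 in control MEFs, 4.91 to 5.91 in OS-treated and 5.88 to 7.46 in OCKS-treated MEFs, and 9 and 10 of the 10 fell. The summed signal of 10 fat cell markers moved the other way, from 5.13 to 5.93 in control MEFs to 114 to 171 and 157 to 209 in treated MEFs, and 8 and 9 of 10 rose. Of these markers, Adipoq encodes the fat cell hormone adiponectin. On the log2 scale it read -3.27, -3.18 and -2.76 in control MEFs, 1.81, 1.21 and 3.3 with OS and 3.64, 2.81 and 3.94 with OCKS. The part of fat cell expression in the levels described here was not tested. Of 10 neutrophil markers, S100a8, Camp, Mpo and Mmp8 rose with OS and 1, Elane, fell, and with OCKS 3 rose and 1 fell. Elane went from a mean log2 level of 0.58 in control MEFs to -1.25 with OS and -1.22 with OCKS. S100a9, Ngp and Retnlg were not well above background on any treated array. The summed neutrophil signal was 36.7 to 48.8 in control, 35.2 to 43.7 in OS-treated and 48.0 to 58.8 in OCKS-treated MEFs. Csf3r, the receptor of G-CSF, made most of this sum, with mean linear signals of 42.2, 34.0 and 50.6, while S100a8 went from 0.0245 to 1.59 and 0.935 and Camp from 0.0663 to 1.32 and 1.07. Of 9 hepatocyte markers, Alb, Apoh and Ahsg rose with OS, while Ttr and Apoa1 were not well above background on any treated array, and the sum was 0.202 to 0.224 in control and 0.415 to 0.539 in treated MEFs. The summed signal of 5 endothelial markers went from 6.52 to 7.34 in control MEFs to 2.96 to 3.57 in OS-treated and 3.29 to 3.78 in OCKS-treated MEFs, with 1 marker falling in each treatment (Kdr, from a mean log2 level of 2.78 to 1.62 and 1.74) and 1 rising with OS. The summed signal of 5 epithelial markers was 1.87 to 2.28 in control, 1.11 to 2.53 in OS-treated and 0.521 to 6.19 in OCKS-treated MEFs, and none was called. In PGCs the 8 germ cell markers summed to 134 to 167. Their sum was 0.997 to 1.12 in control, 1.21 to 1.6 in OS-treated and 0.937 to 1.19 in OCKS-treated MEFs. Against control MEFs, 5 of these markers were called higher in the OS group and 4 in the OCKS group, with 1 called lower in each. Nanos3 made most of the control sum, with mean linear signals of 0.802 in control, 0.314 in OS-treated and 0.326 in OCKS-treated MEFs. Dazl, not well above background on any control array, had mean log2 levels of -2.62 with OS and -2.92 with OCKS.

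**Figure D5:**
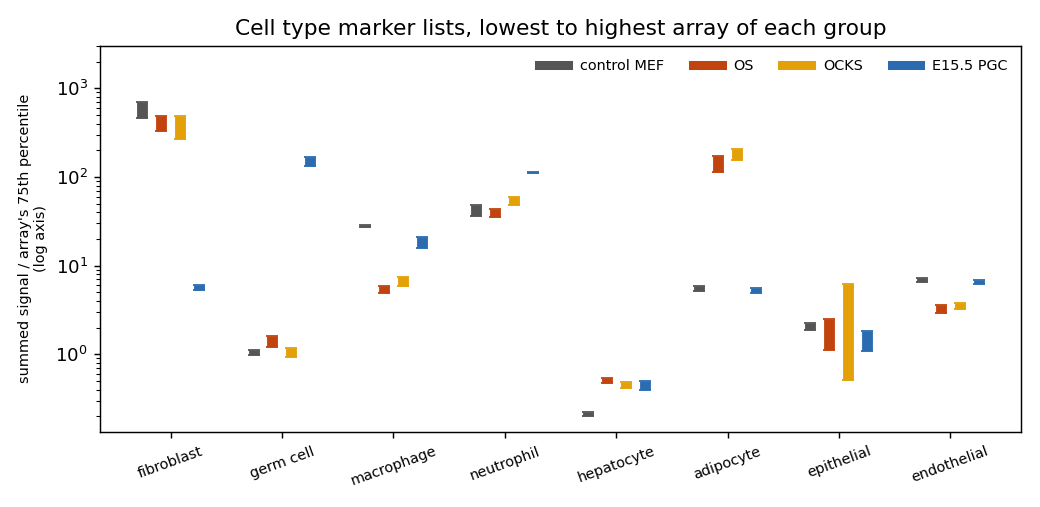
Summed signal of the markers of each cell type, divided by the array's 75th percentile, on a log axis, with each bar running from the lowest to the highest of 3 arrays. The fat cell markers rise from at most 5.93 in control MEFs to at least 114 in treated MEFs, and the macrophage markers fall from at least 27.6 to at most 7.46.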

How the data were processed

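Total RNA was labelled with Cy3 and hybridised to Agilent whole-mouse-genome arrays. The intensity values used were the processed signals that the authors deposited, written by Agilent's Feature Extraction for 12 arrays with background subtracted and no scaling between arrays. Spots of a probe were averaged, 83 probes with an uneven spot and all control spots were left out, and each array's 75th percentile over 39346 probes was subtracted on the log2 scale. The accession of 25992 probes matched 19718 genes in a RefSeq table, and the brightest probe stood for a gene with several. A deposited table of log2 values, scaled and gene-centred in a way not given in the sources used here, served as an alternative, with 2 PGC columns left out because they did not follow their arrays (r = 0.013 and 0.521). The medians of its columns ran from -0.104 to 0.258, the other 10 columns followed their arrays in direction and scale, and how the centring was done stays unknown.

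Differences were fitted with limma 3.58.1 in R 4.3.3 over all 12 arrays with no covariates, on genes for which either compared group had every array well above background. A call required an adjusted p under 0.001 (Benjamini-Hochberg) and a change of at least 2-fold. P-values measure the spread between biological replicates, and 3 arrays per group limit the precision. The script was tested on simulated data first. Where a probe was not well above background on any array of a group, a bound is given in place of a fold. From each companion list up to 3 called genes with the largest change were named, and any gene needed to account for a count of 5 or fewer. Other list genes were named after their values were seen. Some list genes that entered the counts are not reported here by name. The genes most like Saa3 and Lcn2 were the 5 with the smallest root mean square distance over the 12 arrays.

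The genes and the companion and marker lists were chosen with earlier results of these data known. Protein sequences were not used here. Alternatives covered background correction, scaling, filters, probes, slide and replicate blocks, the threshold, the deposited table and leaving out each array.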

Additional observations from a re-analysis of the deposited data

How the results depend on the processing

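Across 26 alternatives, 882 of 916 recomputed differences of the 9 genes kept their direction and their side of the limits, and the 8 genes above control MEFs stayed above in all that were run. With both groups required above background, Steap4 and, in PGCs, Serpina3n were no longer tested. Without the third OS replicate, 9 genes passed with OS and Nos2 passed against OS; leaving out single arrays, the members called were 8 to 9 with OS, 8 with OCKS, 0 to 1 in OCKS against OS and 4 to 5 in PGCs, where Saa3 lost its call without any of 4 arrays and also with normexp and quantile normalization (-0.63) and the deposited table (-1.51).

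Differences near 0 changed sign. For Hp in OCKS against OS they were -0.13 after quantile normalization, -0.08 with normexp and quantile, -0.03 with median scaling, -0.0041 with the percentile of probes detected on all arrays, -0.47 with spike-ins, -0.09 with the slide as a random and -0.65 as a fixed block, and -0.18 to 0.17 without single arrays. For Acod1 in PGCs they were -0.62, -0.11, -0.37 and -0.32 with quantile, normexp and quantile, median and spike-in scaling, and -0.12 to 0.2 without single arrays. Lcn2 ranged from -0.32 to 0.06 in OCKS against OS and from -0.19 to 0.08 in PGCs without single arrays.

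Over all genes, spike-in scaling changed the rises with OS from 1745 to 4141, the falls with OS from 2056 to 602 and the falls with OCKS from 2255 to 1096. Normexp and quantile normalization gave 1289 and 1366 falls. In OCKS against OS, where no gene passed, quantile normalization, median scaling, spike-in scaling and the deposited table each gave 1 fall, normexp and quantile 2, and an adjusted p under 0.05 gave 1 rise and 6 falls. Leaving out single arrays gave 0 to 6 rises and 0 to 26 falls there, 1528 to 1827 rises and 1743 to 2103 falls with OS, 1558 to 1852 and 1858 to 2273 with OCKS, and 4976 to 5247 and 4365 to 4568 in PGCs. The causes were not tested.

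Whether the replicate numbers of the labels pair the samples is not known. The 18 correlations of same-numbered deviations from the group means ran from -0.342 to 0.509. They cannot decide it, because deviations within a group depend on each other and some of these pairs shared a slide. Fitted with a replicate block, 8 genes were called with OS and 8 with OCKS, 4 fell in PGCs (Saa3, at -2.06, lost its call), and 0 differed in OCKS against OS, while over all genes 1644 rose and 1922 fell with OS.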
